A study of Mus musculus with 6 samples.

Results

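BAG proteins and small heat shock proteins are helpers of the HSP70 chaperone machine, and 10 of their genes (Bag1, Bag2, Bag3, Bag4, Bag5, Bag6, Stub1, Hspbp1, Hspb1 and Cryab) were followed in natural killer (NK) cells of mouse spleen. They were taken by symbol from the 55291 gene rows of a bulk RNA-seq count table. All 10 had a row, and 9 passed the filter on low counts that left 16480 genes for testing. Hspb1 did not pass it. The 6 libraries came from 6 mice kept at steady state, 3 wild type for heat shock factor 1 (HSF1), named WT 1, 2 and 3, and 3 in which serines 303 and 307 of HSF1 are changed to alanine, named S303/7A 5, 6 and 7. HSF1-enhanced is the name that the series text has for this mutant. No other allele or agent is named for either group, and the sources used here do not give age, sex or strain. Splenocytes were enriched with DX5 beads and sorted as CD49b+, CD3e- cells, and RNA was amplified with SMART-seq HT, a kit that copies whole transcripts. A mutation carried by every cell of the animal does not separate an effect within NK cells from one that reaches them from other cells.

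HSP70 proteins bind and release unfolded protein in a cycle driven by ATP. Most BAG proteins share a domain that binds the HSP70 ATPase and helps to release the nucleotide, and they couple HSP70 to different partners, such as the proteasome or autophagy. HSPBP1 does the same work with an unrelated fold, CHIP (gene Stub1) marks chaperone clients with ubiquitin, and small heat shock proteins hold unfolded protein without ATP. HSF1 is the transcription factor of the heat shock response, and Bag3, Hspb1 and Cryab are known among its targets in stressed cells. Phosphorylation of the mutated serines is known to restrain HSF1.

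Promoters were read for exact letters of the sequence that HSF1 binds, inverted repeats of GAA. The letters GAANNTTC and TTCNNGAA, each its own reverse complement so that both strands are covered, were searched from 250 bases before to 50 bases after the RefSeq starts (GRCm38.p6). Of the 10 members 8 had a promoter sequence to search, and 3 of these, Hspb1, Stub1 and Bag3, held a match, while 15.1% of all 32851 promoters of that length held one. Members are counted by gene here, and Bag5 had 2 promoters, whereas the 15.1% is counted by promoter. Hspb1 had GAANNTTC in 2 places, 117 and 97 bases before the start, and Stub1 had it 123 bases before the start. In Bag3 the match lay 42 bases after the RefSeq start. The longer form, with 1 more unit (GAA or TTC in turn) after another 2 bases, was in none of the 8 and in 0.603% of all promoters. The promoter of Hspa1a, a classical HSF1 target, held GAANNTTC but not the longer form. A match describes the letters and is not a bound site. A promoter without a match can still hold altered or more distant repeats, which were not searched. Capitals mark the matches in the 200 bases before the start of Hspb1 and Stub1 and in a stretch of 30 bases of Bag3, and Bag1, the member that varied most between libraries, is shown as one without a match.
Hspb1, chr5:135887719-135887918, plus strand: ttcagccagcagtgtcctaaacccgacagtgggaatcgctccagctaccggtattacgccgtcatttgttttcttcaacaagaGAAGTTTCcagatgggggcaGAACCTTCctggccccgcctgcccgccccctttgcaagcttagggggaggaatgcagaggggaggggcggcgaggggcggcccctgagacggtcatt
Stub1, chr17:25832920-25833119, minus strand: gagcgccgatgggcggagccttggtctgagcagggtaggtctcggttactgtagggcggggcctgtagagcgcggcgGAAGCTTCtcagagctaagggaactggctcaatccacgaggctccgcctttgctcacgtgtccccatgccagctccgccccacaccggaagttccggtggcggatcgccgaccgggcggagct
Bag3, chr7:128523603-128523632, plus strand: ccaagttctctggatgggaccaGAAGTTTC
Bag1, chr4:40948295-40948494, minus strand: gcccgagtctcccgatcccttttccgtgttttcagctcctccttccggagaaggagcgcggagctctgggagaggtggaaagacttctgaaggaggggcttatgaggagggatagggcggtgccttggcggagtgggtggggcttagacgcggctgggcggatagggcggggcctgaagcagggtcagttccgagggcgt

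All 6 BAG genes, Stub1 and Hspbp1 were counted in every library, from 2.38 counts per M counts (CPM, for Bag2 in S303/7A 7) to 97.8 CPM (Bag1 in S303/7A 7), while Hspb1 and Cryab stayed at or below 0.510 CPM. None of the 9 tested members passed the test for a difference between the genotypes. For Bag3, Bag4, Bag5, Stub1 and Hspbp1 the 95% intervals of the fold lay within 0.798 and 1.34, and those of Bag1 and Cryab were wide. In edgeR's quasi-likelihood test 0 of 9 had an adjusted p under 0.05, where 0.364% of all tested genes were called, 0.133% higher and 0.231% lower in S303/7A. Over all genes these were 22 higher and 38 lower calls, and without S303/7A 6 they were 38 and 19. Also 0 of 9 reached an unadjusted p below 0.05, where 9.68% of all tested genes did. DESeq2, which called 434 of 19993 genes, and limma-voom, which called 38 of 16480, called 0 members as well. In 0 of the 10 members were the 3 WT libraries all above or all below the 3 S303/7A libraries, where 16.0% of tested genes were separated in that way. Log2 folds (S303/7A over WT) had a median of 0.02 for the 9 members, 5 of them above 0, and 0.0088 for all tested genes.

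The libraries were deep, and some genes set them apart. WT libraries held 53845572 to 72736406 counts and S303/7A libraries 43189163 to 47248039, so depth differed with genotype. NK markers were high in all libraries, their 9 genes summing to 19269 to 23363 CPM in WT mice and 20581 to 22154 in S303/7A mice. Markers of basophils (7 of 7 detected, summed level 325 to 661 CPM in WT and 196 to 294 in S303/7A) and platelets (8 of 8, 243 to 268 and 110 to 153) did not overlap, with S303/7A the lower. Of the other lists, the erythroid sum was also separated (6 of 6 detected, 5.03 to 6.49 and 2.68 to 4.80 CPM). Its genes did not move as 1, since of 5 tested 3 had folds above 1 and 2 below. Their median log2 fold was 0.065, and 1 gene was separated. The others overlapped: B cell (6 of 6, 321 to 642 and 493 to 643), T cell (6 of 6, 54.8 to 93.7 and 76.8 to 107), monocyte (6 of 6, 39.9 to 55.4 and 34.6 to 41.7), neutrophil (6 of 6, 8.85 to 35.7 and 4.41 to 10.7) and stromal markers (8 of 9, with Cdh5 at 0, 105 to 197 and 101 to 133). Their part in the values of the members was not tested. In a bulk sample fewer cells of a type and less RNA per cell cannot be told apart.

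**Figure D1:**
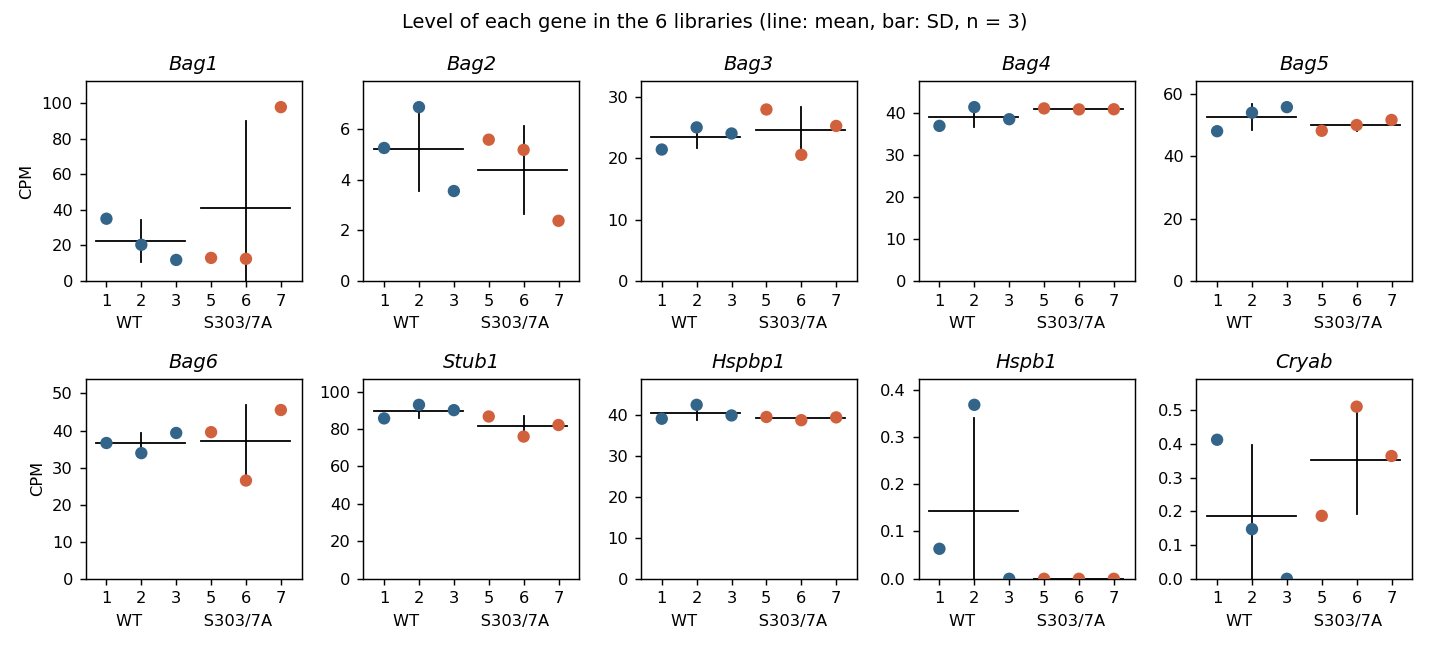
CPM of the 10 genes in each library, on axes that start at 0, with blue points for WT and orange points for S303/7A. Lines are means and vertical bars SD (n = 3, bars cut off at 0), and Bag1 in S303/7A 7, at 97.8 CPM, stands far above the 12.5 and 13.0 CPM of the same genotype.

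Bag1 (chr4:40936398-40948294, minus strand, GRCm38) encodes a nucleotide exchange factor of HSP70 that also binds the proteasome and BCL2. It varied more between mice of 1 genotype than any other tested member with a mean log2 CPM of at least 2. WT 1, 2 and 3 had 35.1, 20.4 and 11.9 CPM of Bag1, against 13.0, 12.5 and 97.8 in S303/7A 5, 6 and 7. S303/7A 7 was the highest of all 6, and S303/7A 5 and 6 lay just above the lowest WT library. The highest library was 8.22 times the lowest. Only 0.63% of 10004 tested genes with a mean log2 CPM of at least 2 had a wider range, and 0.43% a larger SD within the genotypes. The log2 fold was 0.87 ± 0.83 (SE), with a 95% interval from -1.07 to 2.81 and 0.829 as the adjusted p from edgeR (quasi-likelihood test). Without S303/7A 7 the fold turned to -0.82, with an adjusted p of 0.582, so 1 library set its direction.

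Few genes lay within a set distance of that profile, but the distance is not scaled to spread, so widely varying genes have few neighbours. The 3 nearest among 10003 genes, by root mean square distance of their mean-centred log2 levels over the 6 libraries, were Riox1 (distance 0.13), Timm29 (0.13) and Glud1 (0.15), and 25 genes (0.25%) lay within 0.3. This search was added for Bag1 after its values were seen. Glud1, the mitochondrial glutamate dehydrogenase gene, was at 95.4, 54.6 and 35.3 CPM in the WT mice, against 47.4, 39.0 and 266 in the S303/7A mice. Ubqln1, a shuttle of ubiquitin-marked protein and the fourth nearest gene, was at 70.8, 37.0 and 18.0 CPM and at 25.9, 22.6 and 154 CPM. Riox1, a ribosomal oxygenase gene, ranged from 2.88 CPM in WT 3 to 31.1 in S303/7A 7, and Timm29, of the mitochondrial import machinery, from 6.91 to 69.2 CPM between the same libraries. All were high in WT 1 and highest in S303/7A 7, as Bag1 was, which follows from picking them by distance to Bag1. Chmp5, whose start lies beside that of Bag1 on the other strand, did not share the profile, with 96.7, 103 and 105 CPM in the WT mice, against 118, 125 and 112 in the S303/7A mice.

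**Figure D2:**
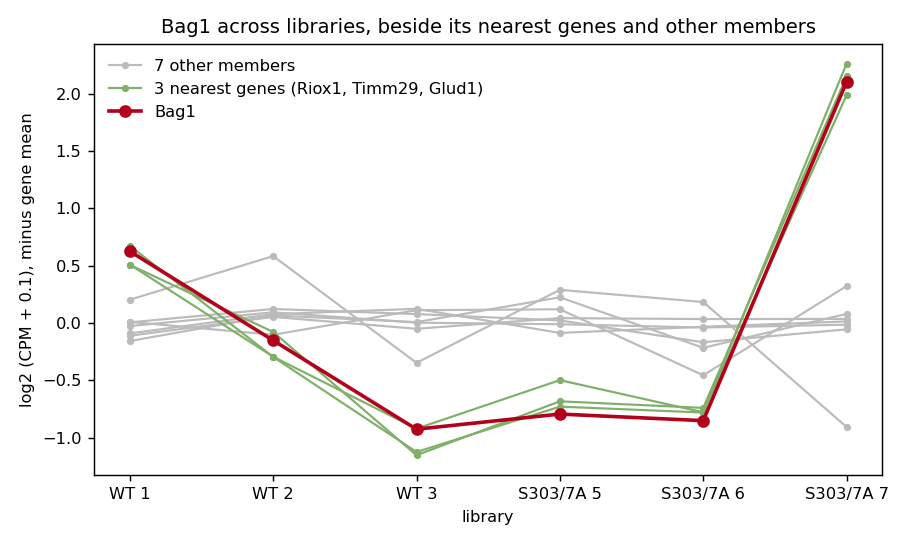
Level of Bag1 (red), its 3 nearest genes (green) and 7 other members (grey) in each library, as log2 (CPM + 0.1) minus the mean of the gene. Lines only join the points of a gene. The green genes, picked for closeness to Bag1, peak with it in S303/7A 7, while most grey lines stay close to 0.

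Of 9393 genes, 415 were more than 2-fold higher in S303/7A 7 than in the mean of S303/7A 5 and 6, and most of them had a GC-rich stretch in the transcript. The measure was the GC share of the densest window of 200 bases in the longest coding transcript, 79.5% for Bag1. Among 7385 genes under 75%, 0.812% were higher in this way. From 75% to 80% it was 14.9% of 1312 genes, from 80% to 85% it was 27.4% of 563, and from 85% on it was 3.76% of 133. Within WT, 438 of the 9393 genes were more than 2-fold higher in WT 1 than in WT 3. These were 1.81% of the genes under 75% and 16.8% of those from 75% to 80%. Each of these contrasts lies within 1 genotype and sets its library highest for Bag1 against lower ones. The contrasts and the GC measure were not planned and were added after the Bag1 values were seen. Bag5, with a window at 76.0%, had a log2 difference of 0.073 between S303/7A 7 and the mean of S303/7A 5 and 6. Bag4, at 75%, was within 0.003, and Bag2, also at 75%, had a difference of -1.14. A GC-rich window thus did not go with the profile in every member. Its part in the Bag1 values was not tested.

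**Figure D3:**
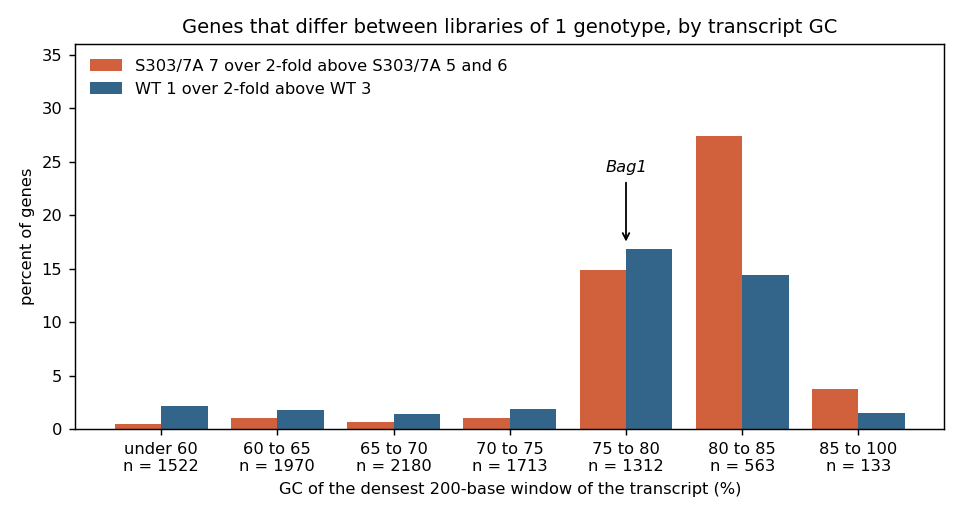
Percent of genes more than 2-fold higher in S303/7A 7 than in S303/7A 5 and 6 (orange) and in WT 1 than in WT 3 (blue), by the GC share of the densest 200-base window of the transcript. Both shares rise from about 75%, the range that holds Bag1 at 79.5%, and are low again from 85%.

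Bag2 (chr1:33745484-33757795, minus strand) encodes an inhibitor of CHIP and was the lowest BAG gene per length. Its CPM was 5.25, 6.86 and 3.55 in WT and 5.57, 5.17 and 2.38 in S303/7A. The lowest library of each genotype was WT 3 and S303/7A 7, and the ranges overlapped. The log2 fold was -0.25 ± 0.39 (SE) with 0.911 as the adjusted p from edgeR (quasi-likelihood test), and it was 0.04 without S303/7A 7. In S303/7A 7 Bag2 lay 1.14 below the mean of S303/7A 5 and 6 on the log2 scale, the opposite side from Bag1.

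Bag3 (chr7:128523616-128546981, plus strand), the BAG protein that carries HSP70 clients to autophagy with small heat shock proteins, is a known target of HSF1. It stood at 21.4, 24.98 and 23.997 CPM in the WT mice, against 27.9, 20.5 and 25.2 in the S303/7A mice. The lowest and the highest library were both S303/7A. Means were 23.5 ± 1.86 and 24.5 ± 3.73 CPM (SD, n = 3), and the 95% interval of the fold ran from 0.819 to 1.34. Without S303/7A 5 the log2 fold moved from 0.07 to -0.04, so no direction can be given. Its 3 nearest genes by profile were Arf3 (distance 0.035), Vps37b (0.036) and Dennd11 (0.039), but 75.4% of the 10003 genes lay within 0.3 of Bag3.

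Bag4 (chr8:25764538-25785287, minus strand), which encodes the silencer of death domains that binds TNF receptor 1, was at 36.9, 41.3 and 38.4 CPM in the WT mice, against 41.0, 40.8 and 40.8 in the S303/7A mice. The 3 S303/7A values fell within the WT range. Of the exon bases of Bag4, 14.8% are shared with the non-coding gene Gm17484 on the other strand, which was itself at 0.257 to 1.02 CPM.

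Bag5 (chr12:111709488-111713257, minus strand), the member with several BAG domains, was at 48.0, 54.0 and 55.7 CPM in the WT mice, against 48.2, 50.01 and 51.6 in the S303/7A mice. All 3 S303/7A values lay within the WT range. The 95% interval of the fold was 0.902 to 1.22 for Bag4 and 0.814 to 1.11 for Bag5.

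Bag6 (chr17:35135178-35147322, plus strand), which hands tail-anchored membrane proteins to their insertion pathway and sorts misplaced ones for degradation, was at 36.6, 33.9 and 39.3 CPM in the WT mice, against 39.6, 26.5 and 45.5 in the S303/7A mice. S303/7A 6 was the lowest and S303/7A 7 the highest of all libraries. Means were 36.6 ± 2.72 and 37.2 ± 9.73 CPM (SD, n = 3), and the log2 fold of 0.02 changed sign with library totals (-0.0057), limma-voom (-0.012) and thinning (-0.0035). Bag6 lies in the major histocompatibility region, between Glo1 and H2-Q4, genes chosen after their values were seen. Glo1 read 139, 51.4 and 140 CPM in S303/7A 5, 6 and 7, and H2-Q4 73.5, 15.5 and 71.7 CPM, so the S303/7A mice differed among themselves on both sides of it. In WT those genes were at 45.6 to 47.5 and 15.3 to 16.9 CPM, near S303/7A 6, whereas Bag6 was lowest in S303/7A 6. The part of that difference in the Bag6 values was not tested.

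Hspbp1 (chr7:4660521-4685068, minus strand), the exchange factor without a BAG domain, was the steadiest member. It was at 39.1, 42.5 and 39.9 CPM in the WT mice, against 39.5, 38.8 and 39.4 in the S303/7A mice. The highest library was only 1.10 times the lowest, and 98.1% of the 10004 genes had a wider range. The 95% interval of its fold ran from 0.835 to 1.12, with 0.936 as the adjusted p from edgeR (quasi-likelihood test).

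Stub1 (chr17:25830505-25833404, minus strand) was the most abundant member by CPM in WT. It was at 85.7, 92.9 and 90.1 CPM in the WT mice, against 86.7, 76.0 and 82.2 in the S303/7A mice. S303/7A 6 and 7 lay below all WT libraries and S303/7A 5 within their range. Of the members at a mean log2 CPM of at least 2 it had the lowest p. Its log2 fold was -0.13 ± 0.08 (SE), with 0.693 as the adjusted p from edgeR (quasi-likelihood test), and the 95% interval of the fold reached from 0.798 to 1.04. Jmjd8 on the other strand covers 42.3% of the exon bases of Stub1, and the sources used here do not give the strand setting of the counting, so reads from the shared bases cannot be placed. Jmjd8 was at 15.1, 15.4 and 16.2 CPM in the WT mice, against 13.7, 14.2 and 14.5 in the S303/7A mice.

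**Figure D4:**
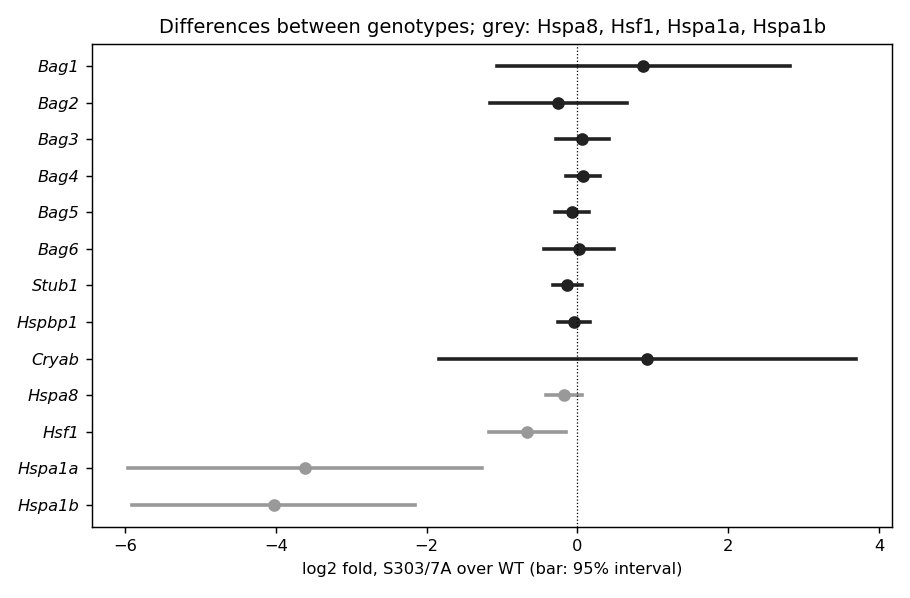
Fitted log2 fold of S303/7A over WT with its 95% interval, not adjusted for the number of genes, for the 9 tested members (black) and 4 genes of the HSP70 and HSF1 lists (grey). Intervals of all 9 members include 0, and those of Bag1 (-1.07 to 2.81) and Cryab (-1.83 to 3.70) are the widest.

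Both small heat shock protein genes were near the limit of detection. Hspb1 (chr5:135887919-135889563, plus strand), which encodes HSP25, the mouse form of HSP27, had 4, 20 and 0 counts in WT and 0 in each S303/7A library. Over the groups that is 24 of 189249281 counts, or 0.127 CPM, against 0 of 134114022, which allows up to 0.0224 CPM at 3 counts. The observed WT level was 5.67-fold above that floor over the group, but 1.32-fold without WT 2, since WT 2 held 20 of the 24 counts. These ratios leave out the counting error of the WT counts, so they are not lower bounds. WT 3, at 0 counts, did not differ from the S303/7A libraries. Without the filter on low counts the gene entered edgeR's quasi-likelihood test with an unadjusted p of 0.0256 and an adjusted p of 0.601, and DESeq2 gave an adjusted p of 0.567. Near-identical copies, Gm9817 and Hsp25-ps1, share 99.8% of 477 and of 441 bases with Hspb1, so its few counts are uncertain. Gm9817 had 4 counts and Hsp25-ps1 had 1, all in WT 3, the WT library listed at 0 counts of Hspb1.

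WT 2 stood out in more than Hspb1. It had the highest levels of the stress-inducible HSP70 genes Hspa1a (15.1 CPM, against 1.76 and 0.952 in WT 1 and 3) and Hspa1b (89.3, against 13.0 and 10.9), near-identical genes whose reads can be exchanged, which were at 0.407 to 0.626 and 1.82 to 3.02 CPM in S303/7A. No other gene in the list of HSF factors and classical HSF1 targets was highest in WT 2. Some, such as Hsph1 (62.5 CPM) and Dnaja1 (176 CPM), were lower in WT 2 than in every other library. The summed level of 9 immediate early genes was 887 CPM there and 511 to 555 CPM in the other 5 libraries. Single genes of that list did not all follow the sum. Egr1 and Atf3 were not highest in WT 2. In Fos, Jun and Nr4a1 all WT libraries lay above all S303/7A libraries (3 of 9 separated, against 16.0% of tested genes). Of the 9 folds 8 were below 1 and 1 above. WT 2 also had the highest summed neutrophil markers (35.7 CPM, against 4.41 to 13.2) and 71 counts of Elane, a granule protease gene of young neutrophils, where no other library had more than 4. It was highest as well for the summed markers of basophils (661 CPM, against 196 to 435) and of monocytes and macrophages (55.4 CPM, against 34.6 to 41.7). The part of these in the Hspb1 counts was not tested. Bag3, another known target of HSF1, was at 24.98 CPM in WT 2, above the 21.4 and 23.997 CPM of WT 1 and 3. That value lay inside the range of the S303/7A libraries.

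Cryab (chr9:50751325-50756636, plus strand), which encodes alpha B-crystallin, had 26, 8 and 0 counts in WT and 8, 22 and 17 in S303/7A. Each genotype had a library with more than 20 and one with fewer than 10 counts, and the ranges overlapped. Its log2 fold was 0.92 ± 1.18 (SE), with 0.891 as the adjusted p from edgeR (quasi-likelihood test) and an interval of the fold from 0.281 to 13.0. Summed counts gave a WT to S303/7A ratio of 0.513, with an exact 95% interval for counting error of 0.320 to 0.814. It was 0.180 (0.0736 to 0.385) without WT 1, 0.548 (0.326 to 0.903) without WT 2 and 0.833 (0.519 to 1.32) without WT 3. The spread between mice was thus wider than the counting error. Hspb2, which starts beside Cryab on the other strand and shares 252 exon bases with it, had 0 counts in WT and 5 in S303/7A, all in S303/7A 5. The floor and the counting intervals cover counting error alone, because these reads carry no molecular identifiers and repeated reads of 1 molecule count again.

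The other small heat shock protein genes were low too. Of 9 in that list, Hspb3, Hspb7 and Hspb8, the partner of BAG3 in selective autophagy, had no count in any library, Cryaa had 3 counts in all and Odf1 had 2. Only 3 were tested, 0 were called and 1 reached an unadjusted p below 0.05 in edgeR, against 0.364% and 9.68% of all tested genes. Hspb6 was the most abundant of them, at 4.64, 4.49 and 5.10 CPM in the WT mice, against 3.20, 1.76 and 4.62 in the S303/7A mice. Hspb11, which works in cilia rather than as a chaperone, was at 1.05, 0.754 and 1.06 CPM in the WT mice, against 1.66, 2.18 and 1.67 in the S303/7A mice, separated but with 0.403 as the adjusted p from edgeR (quasi-likelihood test). Hspb9 was at 0.0159 to 0.381 CPM.

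Levels of different members can be compared only per length, as CPM per kilobase of exon. On that scale Stub1 led with a mean of 33.4 ± 2.34 over the 6 libraries (SD), followed by Bag1 (23.6 ± 24.8), Hspbp1 (21.1 ± 0.712) and Bag5 (20.4 ± 1.25). Bag1 rested on S303/7A 7 for that place and was above Hspbp1 in 2 of 6 libraries. Hspbp1 and Bag5 overlapped as well. Bag3 followed at 9.37 ± 1.06, below Bag5 and above Bag6 in all 6 libraries. Bag6 (5.94 ± 1.03) and Bag4 (5.67 ± 0.256) overlapped, Bag2 was at 1.57 ± 0.519, and Cryab (0.183 ± 0.129) and Hspb1 (0.0697 ± 0.143) came last and overlapped. Exon lengths are from GENCODE M21, which may not be the annotation that was counted.

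**Figure D5:**
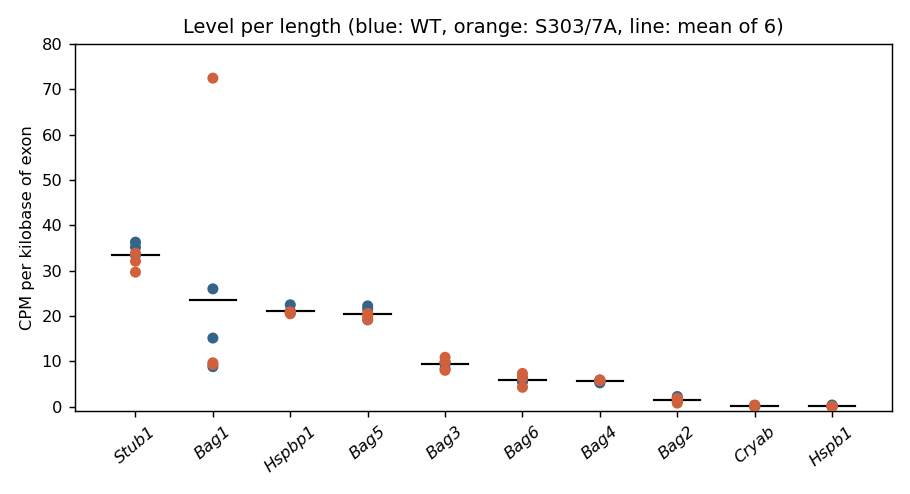
Level per length of each member in the 6 libraries, as CPM per kilobase of exon, with blue points for WT, orange points for S303/7A and a line at the mean of 6. Stub1 is at 29.7 to 36.3, while Bag1 spreads from 8.81 to 72.5 and crosses the range of every member from Stub1 down to Bag3.

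Partners of the members did not pass the test either. Over 8 pathway lists with 78 different genes, 71 were tested, none was called (0, quasi-likelihood test of edgeR) and 10 reached an unadjusted p below 0.05, 2 with a fold above 1 and 8 below. Of all tested genes 0.364% were called and 9.68% reached that p, so 0 calls is the usual outcome for lists of this size. These shares apply to the counts of each list below as well. Limma-voom called 0 of them, and DESeq2 called 1, Hspa1b, lower. Over all genes limma-voom called 38 of 16480, and DESeq2 called 434 of 19993, 288 of them lower. The median log2 fold of the 71 tested list genes was 0.04, with 44 above 0 and 27 below, and 12 were separated between the genotypes (16.0% of all tested genes were).

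Of 12 HSP70 family genes 0 were called and 2, Hspa1a and Hspa1b, reached an unadjusted p below 0.05. Their median log2 fold was -0.03, with 6 above 0 and 6 below. Hspa8, the constitutive HSP70 that BAG proteins act on, was at 758 ± 78.3 CPM over the WT mice, against 668 ± 67.6 over the S303/7A mice (SD, n = 3), a log2 fold of -0.18 ± 0.10 (SE). Hspa5 of the endoplasmic reticulum was at 823 ± 56.2 and 833 ± 104, and Hspa9 of mitochondria at 163 ± 7.91 and 140 ± 20.5. Hspa1b had a log2 fold of -4.03 ± 0.80 with 0.181 as the adjusted p from edgeR (quasi-likelihood test), and alternatives gave 0.00241 to 0.499. WT 2 set much of its size: without WT 2 the log2 fold of Hspa1b was -2.38, and limma-voom gave -3.26. Among 7 other exchange factors 0 were called and 1, Hyou1, reached an unadjusted p below 0.05, at 60.8 ± 9.64 and 46.2 ± 3.67 CPM. Their median was 0.08, 4 above 0 and 3 below. Hspa4 was at 163 ± 42.4 and 156 ± 20.03 CPM and Grpel1 at 88.6 ± 5.79 and 88.0 ± 4.16.

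CHIP works with HSP90, J proteins and ubiquitin-conjugating enzymes. Of 14 such genes 0 were called and 2, Hsp90aa1 and Hsp90ab1, reached an unadjusted p below 0.05, while the median log2 fold was 0.06 with 10 above 0. Hsp90ab1 was at 1172, 1093 and 1219 CPM in the WT mice, against 1012, 939 and 927 in the S303/7A mice, separated, with a log2 fold of -0.28 ± 0.07 and 0.214 as the adjusted p from edgeR (quasi-likelihood test). Ube2d3, a ubiquitin-conjugating enzyme that works with CHIP, was at 689 ± 44.4 and 726 ± 59.0 CPM. The J protein genes Dnaja1 (213 ± 37.1 and 227 ± 13.8) and Dnaja2 (236 ± 8.20 and 251 ± 14.6) differed by less than their summed SD.

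Autophagy partners of BAG3 gave 0 calls among 12 tested and 2 with an unadjusted p under 0.05, Map1lc3b with a fold above 1 and Gabarapl1 below, and a median log2 fold of 0.06. Sqstm1, the receptor p62, was at 622 ± 27.6 CPM over the WT mice, against 653 ± 40.7 over the S303/7A mice, and Map1lc3b at 317 ± 15.7 and 355 ± 11.8 with 0.483 as the adjusted p from edgeR (quasi-likelihood test). The BAG6 pathway gave 0 calls among 11 tested and 0 with an unadjusted p under 0.05, with a median of 0.12 and 8 above 0. Sgta, which passes tail-anchored proteins on, was at 124 ± 9.07 and 135 ± 8.41 CPM and Ubl4a, a subunit of the BAG6 complex, at 84.2 ± 11.9 and 82.6 ± 3.48. Get4, another subunit, was at 48.5, 37.3 and 15.4 CPM in the WT mice, against 18.9, 17.4 and 62.2 in the S303/7A mice, high in WT 1 and S303/7A 7 like Bag1, with a densest window at 81.0% GC. It was chosen after its values were seen.

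BAG1 and BAG4 also touch survival and death signalling. Of 7 partner genes 0 were called and 0 reached an unadjusted p below 0.05, with a median log2 fold of 0.10 and 6 above 0. Bcl2 was at 326 ± 26.2 CPM over the WT mice, against 343 ± 47.0 over the S303/7A mice, and Ripk1 at 191 ± 10.5 and 216 ± 29.6. In the list of HSF factors and classical HSF1 targets 0 of 17 were called and 6 reached an unadjusted p below 0.05, all with folds below 1, and 5 were separated, while the median log2 fold of the 17 was -0.02. Limma-voom put 4 of the 17 at an unadjusted p below 0.05, and 1661 of all 16480 tested genes. Over all tested genes the shares were 9.68% at that p in edgeR and 16.0% separated. Hsf1 itself was at 83.2, 104 and 108 CPM in the WT mice, against 67.0, 42.2 and 76.9 in the S303/7A mice, a log2 fold of -0.67 ± 0.22 (SE) with 0.386 as the adjusted p from edgeR (quasi-likelihood test). Point mutations leave a transcript that is counted, so this level does not check the labels.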

How the data were processed

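The authors deposited raw counts per gene and, in another table, normalized signal per gene. The submitters' processing notes name GRCm38 (mm10), STAR, featureCounts, Trimmomatic and DESeq2; the sources used here do not give versions, annotation release or strand setting. Multiplying the deposited signal by 1 factor per library (0.817 to 1.40) returned the raw count, within 0.01, for 100% of values, and the count test on those recovered reads called the same 60 genes. Raw counts were tested with edgeR 4.0.16 (R 4.3.3): filterByExpr (minimum count 10, minimum total 15), TMM, quasi-likelihood test, Benjamini-Hochberg over 16480 genes, threshold 0.05. CPM are TMM-scaled, and SE and 95% intervals are Wald-type. Alternatives were DESeq2 1.42.0, limma-voom 3.58.1, other scalings, no filter, thinning and leaving out each library. The scripts' test was tested on simulated data. Named were all members, the 4 most abundant genes per pathway list and called ones (none), Hsf1, Hspa1a, Hspa1b, Hspb8, Hspa8 and the 3 genes nearest Bag3 (Hspb1 was too low to search). Other genes were chosen after their values were seen. Members and lists were chosen with earlier results of these data known. The labels give 1 mouse per library, so p-values rest on 3 mice per genotype. Promoters are from RefSeq, positions and transcripts from GENCODE M21.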

Additional observations from a re-analysis of the deposited data

How the results depend on the processing

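No member was called under any of the 13 alternatives. The 60 calls over all genes were 171 without the low-count filter, 434 in DESeq2 and 38 in limma-voom, and from 5 to 57 when 1 library was left out (5 without WT 2). The 22 higher and 38 lower calls became 38 and 19 without S303/7A 6. With 1 library left out at a time, log2 folds ran from -0.82 to 1.36 for Bag1, -0.47 to 0.041 for Bag2, -0.036 to 0.18 for Bag3 and -0.15 to 0.22 for Bag6, changing sign in 1, 1, 1 and 3 of the 6 fits. Bag6 also changed sign with library totals (-0.0057), limma-voom (-0.012) and thinning (-0.0035). Bag4, Bag5, Stub1, Hspbp1 and Cryab kept their sign in all alternatives run, and Cryab ranged from 0.33 to 2.30. The causes were not tested. DESeq2 (log2 fold -4.04) and the fit without that filter (-4.03) called Hspa1b, whose fold ran from -4.47 to -2.38 with 1 library left out (-2.38 without WT 2) and was -3.26 in limma-voom. No paired analysis was possible because the groups share no replicate number. Hspb1 and Cryab had 24 and 81 counts over all libraries, and WT 2 held 20 of those of Hspb1.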
